A study of Homo sapiens with 9 samples.

Results

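The angiomotins AMOT, AMOTL1 and AMOTL2 and the tyrosine phosphatase PTPN14 were followed in the established human line HuCCT1, which derives from a bile duct cancer (cholangiocarcinoma). The rule that finds them uses gene symbols and no measured value, although the genes were picked with earlier results of these data known. They are 4 of 19775 genes with a probe set of their own, and the platform annotation gave their symbols to 10 of the 54613 probe sets tested. AMOT and AMOTL2 have 1 probe set each, and AMOTL1 and PTPN14 have 4 each.

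Total RNA was hybridised to 9 single-colour arrays. Of these, 4 carried RNA of HuCCT1 cells transfected with an empty vector and 5 carried RNA of HuCCT1 cells transfected with YAPS127A, which overexpresses constitutively active YAP1 with the S127A change. The design asks how the transcriptome differs when the active form is present. All 9 samples are the same line as far as the labels say, and the sample titles do not say whether transfected cells were selected. The sources used here give neither the promoter of the vector, nor the time after transfection, nor whether cultures were separate. The spread behind every p-value is that between these 9 samples and may be technical, and with so few arrays the precision is limited.

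YAP1 is a transcriptional co-activator held in check by the Hippo pathway, in which LATS kinases phosphorylate it and keep it in the cytoplasm. The S127A change removes a serine that these kinases phosphorylate. Angiomotins are scaffold proteins of tight junctions and actin filaments. They carry short proline-rich motifs that bind the WW domains of YAP1 and can hold it at junctions or on actin, and they also bind LATS kinases and NF2. PTPN14 is a phosphatase with a FERM domain that binds YAP1 in the same manner, and it also acts with the scaffold WWC1. AMOTL2 and PTPN14 are in turn commonly listed among the genes that YAP1 and its TEAD partners switch on.

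YAP1 itself had log2 signals between 12.51 and 12.64 with the empty vector and between 12.64 and 12.81 with YAPS127A on its brightest probe set, and none of its 3 probe sets was called (adjusted p = 0.121 for the brightest in limma, 0.0337 with trend and robust eBayes). The sources used here do not say if the construct itself is read by them, so they do not check the labels. The labelled cell type showed its markers: KRT7, KRT19, EPCAM, CDH1 and SOX9 had mean levels from 12.84 to 14.21. Markers of endothelium, where AMOT was first studied, were low, with an average over the 5 genes of 4.62 to 4.87 on the empty vector arrays and 4.69 to 5.02 on the YAPS127A arrays. None of these 5 was called on its brightest probe set, while 3 of the 5 probe sets of PECAM1 were called lower. Fibroblast markers averaged 5.97 to 6.18 with the empty vector and 6.22 to 6.36 with YAPS127A (LUM +1.45, COL1A1 -0.70, the other 3 not called). Hepatocyte markers averaged 6.83 to 6.95 and 6.72 to 6.74 (SERPINA1 -0.62, the other 4 not called on their brightest probe sets). This average hides a spread: SERPINA1 had means of 12.76 and 12.14, while the other 4 had means between 4.23 and 6.65. The 3 leukocyte markers measured averaged 4.74 to 4.87 and 4.02 to 4.19 (LYZ -2.25, the other 2 not called on their brightest probe sets). Of other probe sets, 1 of the 5 of CYP3A4 was called lower and 1 of the 5 of PTPRC higher. Among the biliary markers CDH1 was higher by 0.24 and SOX9 lower (-0.25). Neither was called once the median of neighbouring genes was removed (-0.15 and -0.13), and the call of SOX9 was also lost without empty vector replicate 1 (-0.23, adjusted p = 0.0573 in limma). Their part in the results was not tested. The gap between 3' and 5' actin control probe sets, a sign of RNA quality, ranged from 0.98 to 1.69 with the empty vector and from 0.89 to 1.58 with YAPS127A (2-sided exact permutation test, p = 0.444).

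The 4 genes did not move together. AMOT fell, AMOTL1 rose at all 4 of its probe sets, AMOTL2 rose, and none of the 4 probe sets of PTPN14 passed the test. In limma with Benjamini-Hochberg adjustment over all probe sets, 5 of the 10 probe sets were called higher and 1 lower, at a threshold of 0.05. Over all 54613 probe sets 23.9% were called, with 11.9% of all higher and 12.0% lower. The median difference of the 10 was +0.31 on the log2 scale, against 0.00 over all probe sets. These 10 are not independent, as AMOTL1 and PTPN14 supply 4 each. Taken by gene on the brightest probe set, AMOTL1 and AMOTL2 were called higher, AMOT lower and PTPN14 not called. Of all 19775 genes taken in this way 28.7% were called, 14.5% higher and 14.2% lower. The groups did not overlap for 6 of the 10 probe sets, the same 6 that were called, against 22.3% of all probe sets. These shares over all probe sets include dim ones, which were called less often. With dim probe sets (those not above the median signal) left out, 9 member probe sets remained, without AMOT. Of the 9, 6 were called higher and 0 lower, where 6120 of 27306 probe sets were called higher and 5951 lower.

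**Figure D1:**
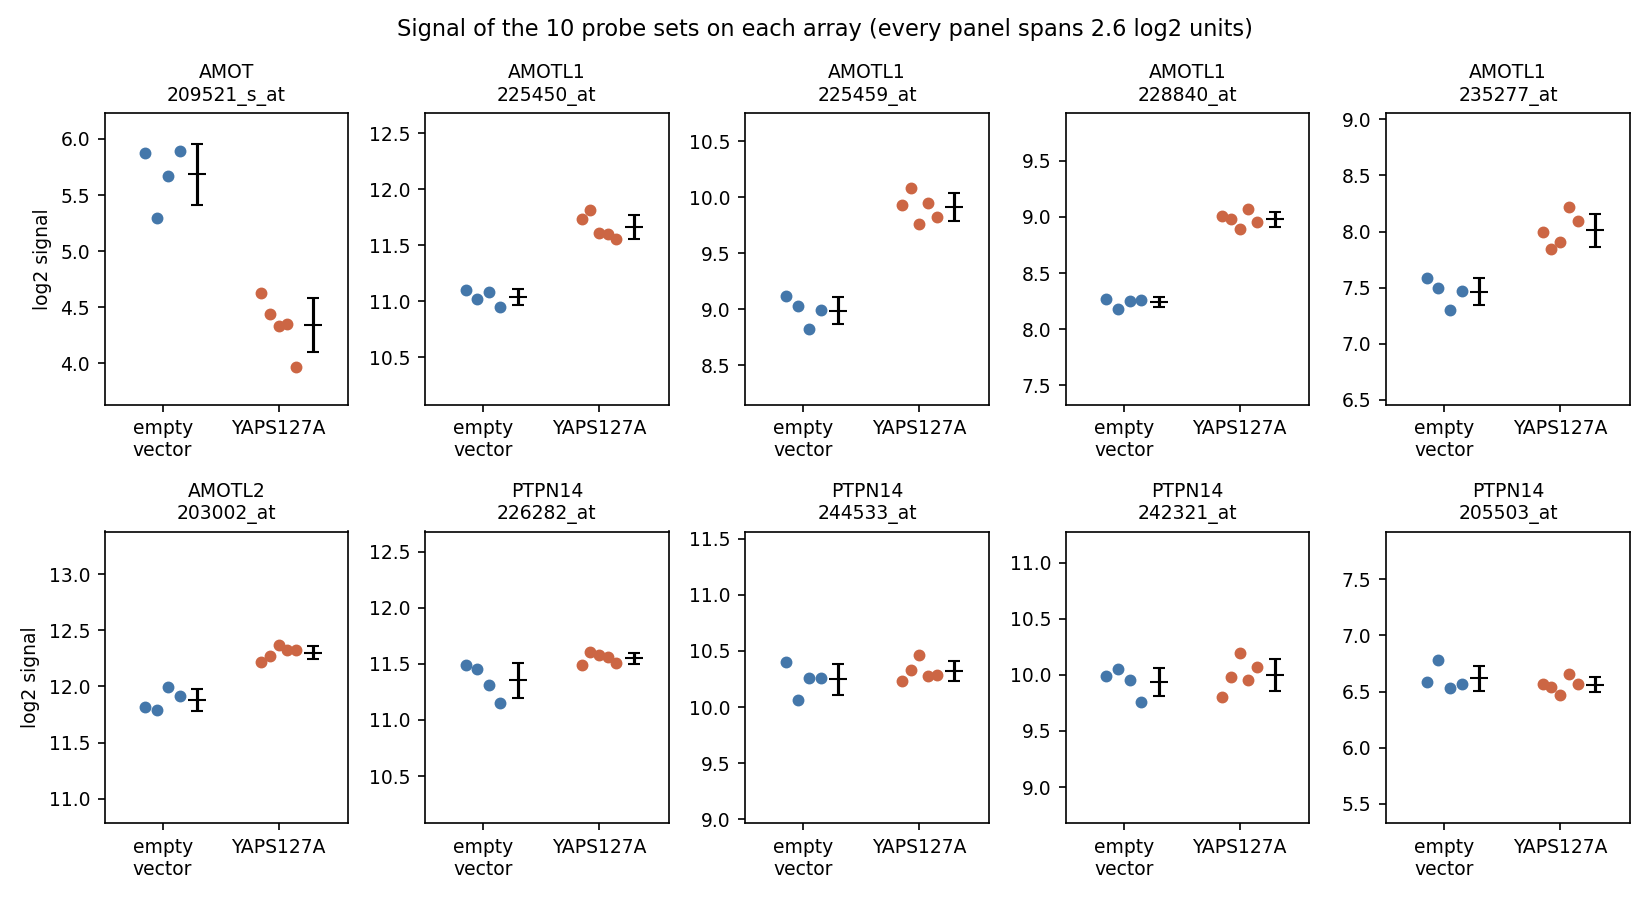
Log2 signal (vertical axes) of the 10 probe sets of AMOT, AMOTL1, AMOTL2 and PTPN14 on the 4 empty vector arrays (blue) and the 5 YAPS127A arrays (orange); each point is 1 array, and the black bar beside each group is its mean ± SD. The groups are apart in the first 6 panels, lower with YAPS127A for AMOT and higher for AMOTL1 and AMOTL2, and they touch or overlap in the 4 panels of PTPN14.

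AMOT encodes angiomotin, the founding member of the family. Its only probe set (209521_s_at, gene on chromosome X) read 5.87, 5.30, 5.67 and 5.89 on empty vector arrays 1 to 4. The YAPS127A arrays 1 to 5 read 4.63, 4.44, 4.33, 4.35 and 3.97. Every YAPS127A array was thus below every empty vector array, with 0.67 log2 units between the nearest arrays. The mean went from 5.68 ± 0.28 (SD, n = 4) to 4.34 ± 0.24 (SD, n = 5), a difference of -1.34 (SE 0.14, limma adjusted p = 3.74e-05). This is 2.53-fold lower (95% interval 2.03 to 3.15). The exact permutation test of the group labels (2-sided) gave p = 0.00794, the smallest that 126 splits allow. Among 19775 genes on their brightest probe set, AMOT ranked 173 from the lowest difference.

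The signal of AMOT was weak in both groups. In the empty vector cells 46.3% of all probe sets had a lower mean, and in the YAPS127A cells 26.3% did. The YAPS127A mean lay close to the lower quartiles of the arrays, which ran from 4.24 to 4.27, so the size of the fall depends on the background, which the deposited values do not give. AMOT also varied more between arrays than most: its SD within groups was 0.26, against a median of 0.13 over all probe sets. Genes beside AMOT on the chromosome hardly moved, with a median difference of -0.0030 over 50 neighbours.

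AMOTL1 (chromosome 11) encodes angiomotin-like 1, a tight junction protein that binds YAP1 through the same kind of motif. Its brightest probe set (225450_at) read 11.10, 11.02, 11.08 and 10.95 with the empty vector and 11.73, 11.81, 11.61, 11.60 and 11.55 with YAPS127A. All 5 YAPS127A arrays were above all 4 empty vector arrays. The mean rose from 11.04 ± 0.07 (SD, n = 4) to 11.66 ± 0.11 (SD, n = 5), by 0.62 (SE 0.07, limma adjusted p = 5.89e-05). The rise was 1.54-fold (95% interval 1.38 to 1.72).

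The other 3 probe sets of AMOTL1 gave the same direction without overlap between groups. The probe set 225459_at read 9.12, 9.03, 8.82 and 8.99 with the empty vector and 9.93, 10.08, 9.76, 9.95 and 9.82 with YAPS127A, a rise of 1.89-fold (95% interval 1.67 to 2.15). It was the largest rise among the 10 probe sets. The probe set 228840_at read 8.27, 8.18, 8.25 and 8.26 and then 9.01, 8.98, 8.89, 9.07 and 8.95, or 1.67-fold higher (1.52 to 1.83). It was also the tightest of the 10, with an SD within groups of 0.06. The dimmest, 235277_at, read 7.59, 7.50, 7.30 and 7.47 and then 7.99, 7.84, 7.90, 8.22 and 8.10, or 1.46-fold higher (1.28 to 1.67). Adjusted p-values of these 3 in limma were 9.11e-06, 3.94e-06 and 0.000799. The 4 probe sets read the same gene and the same RNA and are not separate evidence of it. Neighbouring genes of AMOTL1 lay higher by a median of 0.07, against a rise of 0.55 to 0.92 over its 4 probe sets.

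AMOTL2 (chromosome 3) encodes angiomotin-like 2, the third member of the family. Its probe set (203002_at) read 11.82, 11.79, 12.00 and 11.91 with the empty vector and 12.21, 12.27, 12.37, 12.33 and 12.33 with YAPS127A. The lowest YAPS127A array was 0.22 above the highest empty vector array. The mean rose from 11.88 ± 0.09 (SD, n = 4) to 12.30 ± 0.06 (SD, n = 5), by 0.42 (SE 0.07, limma adjusted p = 0.000560), or 1.34-fold (95% interval 1.21 to 1.48). The exact permutation test (2-sided) gave the smallest possible p = 0.00794. Its 50 neighbours differed by a median of +0.03.

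PTPN14 (chromosome 1) showed no called difference at any of its 4 probe sets. The brightest (226282_at) read 11.49, 11.45, 11.31 and 11.15 with the empty vector and 11.49, 11.61, 11.58, 11.56 and 11.51 with YAPS127A. The lowest YAPS127A array equalled the highest empty vector array, and the other 4 were above all of the empty vector arrays. The mean went from 11.35 ± 0.15 (SD, n = 4) to 11.55 ± 0.05 (SD, n = 5). They differed by 0.20 (SE 0.08), which missed the threshold (limma adjusted p = 0.0898). The exact permutation test for this probe set alone gave p = 0.0159 (2-sided, not adjusted). The 95% interval ran from 1.02-fold to 1.29-fold. With trend and robust eBayes the adjusted p was 0.0474, and with dim probe sets left out it was 0.0488. Without empty vector replicate 4 the difference was 0.13 (adjusted p = 0.248).

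The other probe sets of PTPN14 overlapped between groups. The probe set 244533_at ranged from 10.06 to 10.40 with the empty vector and from 10.23 to 10.46 with YAPS127A (+0.07, adjusted p = 0.583 in limma). For 242321_at the ranges were 9.76 to 10.05 and 9.80 to 10.20 (+0.06, adjusted p = 0.694), and for 205503_at they were 6.53 to 6.78 and 6.47 to 6.66 (-0.06, adjusted p = 0.638). Their 95% intervals reached up to 1.19-fold, 1.19-fold and 1.07-fold.

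The genes around PTPN14 were lower with YAPS127A. The median over 50 neighbours lay between -0.27 and -0.23 on each of the 5 YAPS127A arrays, relative to the empty vector mean, and their difference was -0.25. With this median removed on each array, 3 of the 4 probe sets were called higher in limma: 226282_at by 0.45 (adjusted p = 0.00123), 244533_at by 0.32 (adjusted p = 0.0107) and 242321_at by 0.31 (adjusted p = 0.0213). The dimmest, 205503_at, was at +0.19 (adjusted p = 0.0660). The count over the 10 probe sets was then 8 higher and 1 lower, where 29.4% of all 41005 probe sets in that fit were called. Whether PTPN14 follows its neighbours, as this removal takes for granted, was not tested. For AMOT, AMOTL1 and AMOTL2 it left every call in place, with AMOT at -1.34, the brightest probe set of AMOTL1 at 0.55 and AMOTL2 at 0.39.

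**Figure D2:**
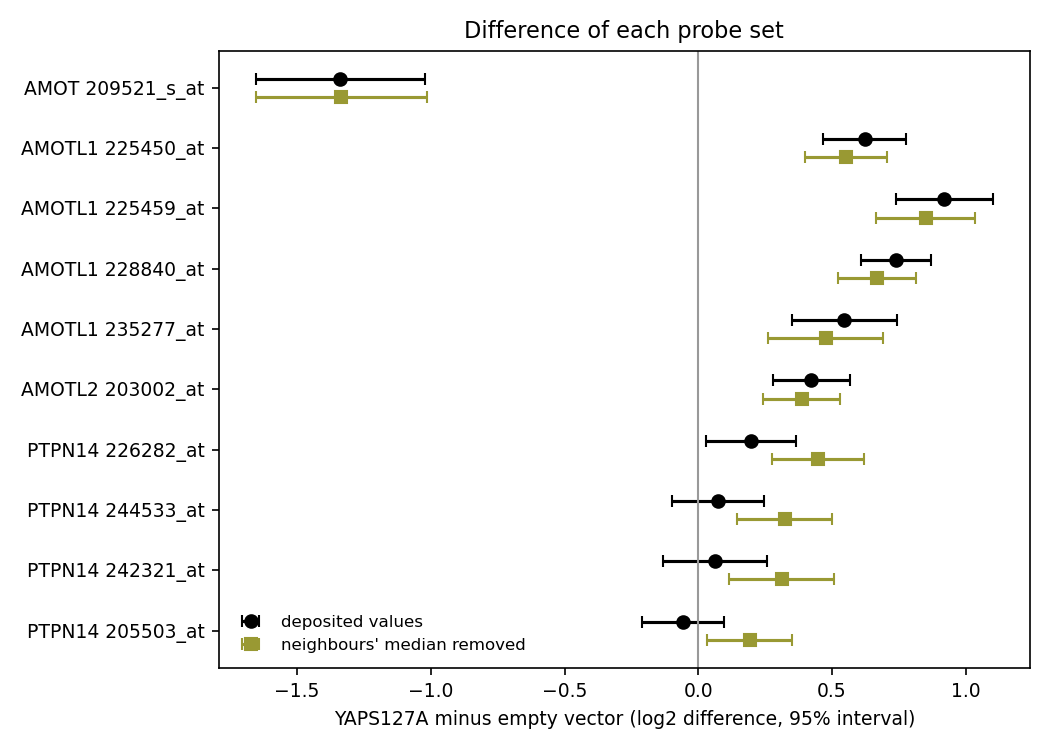
Difference between YAPS127A and empty vector (horizontal axis, log2, with the 95% interval of the limma fit) for each of the 10 probe sets, from the deposited values (black circles) and after removal of the median of up to 50 neighbouring genes on each array (olive squares). The 6 angiomotin probe sets hardly shift between the 2 versions, while the 4 of PTPN14 move right by 0.25.

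The changes of the 4 genes were then compared with each other within arrays, on the brightest probe set of each. The log2 difference between 2 genes was taken on every array, and its group means were compared by exact permutation (2-sided, 6 pairs, Benjamini-Hochberg adjustment over the 6). AMOT moved apart from each of the others. Relative to AMOTL1 it changed by -1.96, relative to AMOTL2 by -1.76 and relative to PTPN14 by -1.53, with adjusted p = 0.0119 for each in the exact permutation test and no overlap between groups. Relative to AMOTL1, AMOT lay between -5.72 and -5.06 on the empty vector arrays and between -7.58 and -7.10 on the YAPS127A arrays. These offsets include how brightly each probe set reads its gene and are no measure of which gene is more abundant.

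The remaining pairs differed less. AMOTL1 rose more than PTPN14, by 0.43 (adjusted p = 0.0119 in the exact permutation test). This call was lost once the neighbours' median was removed (+0.11, adjusted p = 0.248). The rises of AMOTL1 and AMOTL2 were not shown to differ (+0.20, exact permutation adjusted p = 0.119), although they did differ when all probe sets of a gene were averaged (+0.28, adjusted p = 0.0238). AMOTL2 changed by 0.23 relative to PTPN14 (adjusted p = 0.0667 in the exact permutation test). Without empty vector replicate 4 that difference was 0.30 (adjusted p = 0.0429), and with the mean of all probe sets it was 0.35 (adjusted p = 0.00952). Without the neighbours' median it was -0.06 and not called.

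**Figure D3:**
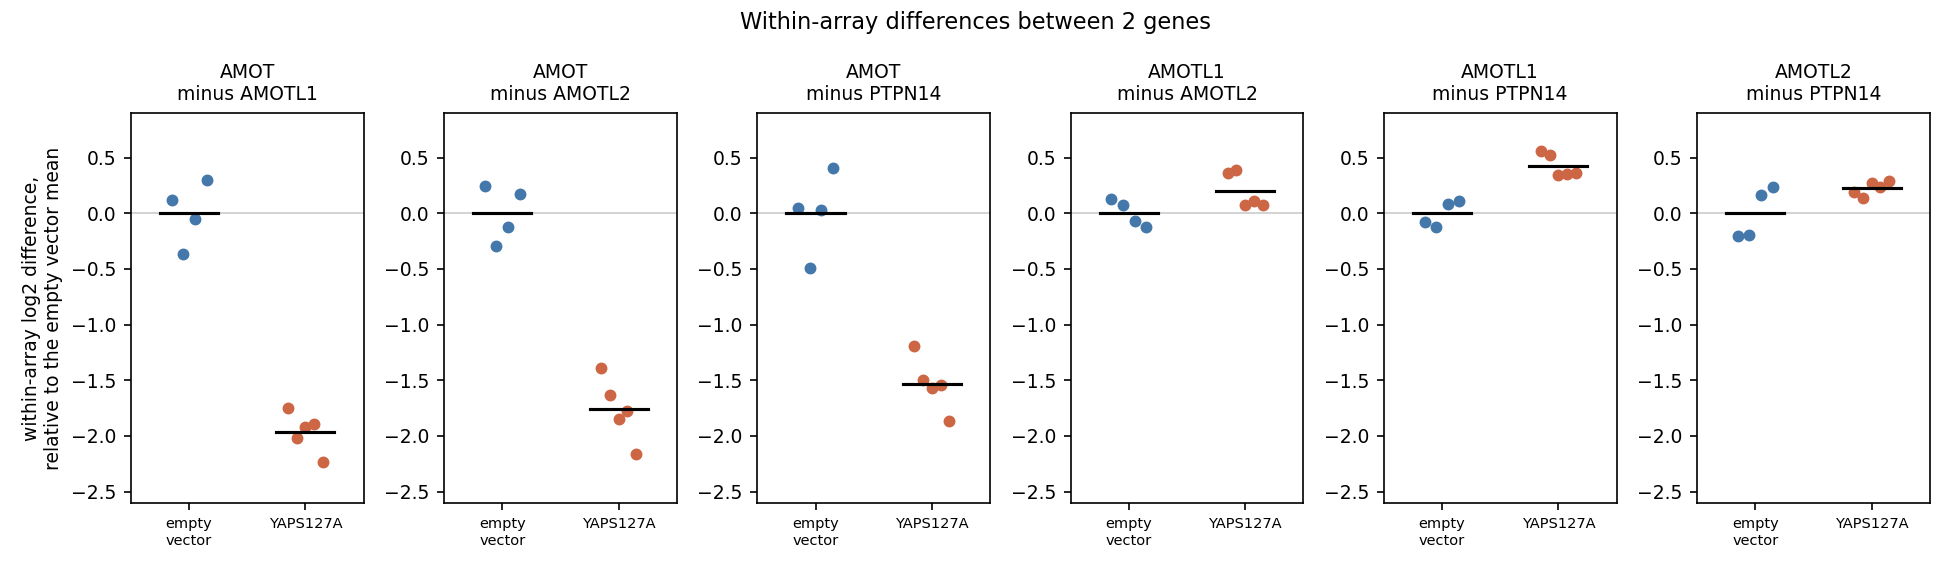
Within-array log2 difference between 2 genes on their brightest probe sets (vertical axis, centred on the empty vector mean), 1 point per array, for the 6 pairs; black lines are group means, blue is empty vector and orange is YAPS127A. The 3 pairs with AMOT change by -1.53 to -1.96, AMOTL1 minus PTPN14 rises by 0.43 without overlap, and the groups overlap in the other pairs.

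TEAD factors, which carry YAP1 to DNA, recognise the core CATTCC, or GGAATG on the other strand. RefSeq promoter windows (GRCh38.p14, 250 bases before to 50 after a start site) were matched by symbol for all 4 genes, with 2 start sites for AMOTL2. The core was searched on both strands. It was found once in the window of the inner start site of AMOTL2, at position -69, and once in that of PTPN14, at position -200. The windows of AMOT, of AMOTL1 and of the outer start site of AMOTL2 held no match. Of all 35116 promoter windows 14.0% held one, or 4928. The matches are shown because AMOTL2 and PTPN14 are the 2 members usually counted as targets, beside those of ANKRD1 and CCN2, standard YAP1 readouts. One window each is printed for ANKRD1 and CCN2, which hold 2 and 3 matches; the others, at -220 and -169, are not shown. All lie on the minus strand, are written in the direction of the gene, and have the core in capitals:
AMOTL2 (chr3:134374499-134374528): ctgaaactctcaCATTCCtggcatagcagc
PTPN14 (chr1:214551785-214551814): cctcccgggccgCATTCCtccccgcccccg
ANKRD1 (chr10:90921198-90921227): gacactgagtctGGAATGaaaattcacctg
CCN2 (chr6:131951454-131951483): gtggggaGGAATGcgaGGAATGtccctgtt
A match is a description of the letters and not a site of binding, which these arrays do not measure. AMOTL1, which rose at all 4 probe sets, has no match in its window.

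Of 22 listed genes for proteins that bind or modify angiomotins, 21 had a probe set of their own; 5 were called higher and 4 lower, or 42.9%, against 28.7% of all 19775 genes on their brightest probe set (14.5% higher, 14.2% lower). The median difference was +0.08, against 0.00 over all genes. The groups did not overlap for 11 of the 21, against 28.3% of all genes. Brighter genes were called more often, and 19 of the 21 lay above the median signal of all probe sets. With dim probe sets left out, 5 of the 19 were higher and 4 lower. In that fit 2938 of 12226 genes were called higher and 2746 lower, so no excess over genes of like signal is shown. The split was 8 higher and 3 lower without the neighbours' median, a fit in which 31.1% of all genes were called. It was the same with the mean of probe sets, where 3331 of all 19775 genes were called higher and 3215 lower. Among the kinases, LATS2, which phosphorylates YAP1 and binds angiomotins, rose by 0.69 (SE 0.06, limma adjusted p = 6.11e-06). LATS2 ran from 10.85 to 10.90 with the empty vector and from 11.45 to 11.63 with YAPS127A. Of its 4 probe sets 3 were called higher. Its sister kinase LATS1 fell, from 9.91 to 10.10 down to 9.02 to 9.28 (-0.83, SE 0.07, adjusted p = 6.47e-06), and all 4 of its probe sets were called lower. The neighbours of both moved the same way, by +0.30 and -0.35, and without their median LATS2 was higher by 0.38 and LATS1 lower (-0.47), both still called.

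ARHGAP17, which encodes a GTPase-activating protein that angiomotin brings to tight junctions, rose by 0.61 (SE 0.07, limma adjusted p = 9.97e-05), or by 0.30 without the neighbours' median (adjusted p = 0.00671). On their brightest probe sets the Crumbs complex genes PATJ (+0.08), PALS1 (+0.14), LIN7C (-0.01) and CRB3 (+0.15) were not called, nor were TJP1 (+0.05), which encodes the tight junction protein ZO-1, MPDZ (-0.08) or NF2 (+0.16, adjusted p = 0.0664), which encodes the tumour suppressor Merlin. Other probe sets of some of these genes were called: 6 of the 8 of NF2 were higher, as were 2 of the 6 of PATJ and 1 of the 2 of PALS1.

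Enzymes that control the stability of angiomotins changed in part. Of the ubiquitin ligases of the NEDD4 family, HECW2 rose by 0.60 (adjusted p = 0.000359 in limma) and NEDD4L by 0.42 (adjusted p = 0.00197), while WWP1 fell (-0.55, adjusted p = 0.000376). HECW2 was dim, with means of 4.46 and 5.06. Of the 3 probe sets of HECW2, 2 were called higher, as were 3 of the 6 of NEDD4L, and 2 of the 2 of WWP1 were called lower. NEDD4 (+0.05) and ITCH (-0.08) were not called on their brightest probe sets, while 1 of the 6 probe sets of ITCH was called higher. Tankyrases mark angiomotins for the ligase RNF146: TNKS2 rose by 0.44, TNKS fell (-0.29) and RNF146 fell (-0.40). Only 1 of the 4 probe sets of TNKS2 was called higher, and only 1 of the 4 of TNKS lower. The neighbours of WWP1, TNKS2 and RNF146 moved by -0.35, +0.35 and -0.46. Without the neighbours' median none of these 3 was called, at -0.20 (adjusted p = 0.0606 in limma), +0.09 (adjusted p = 0.479) and +0.061 (adjusted p = 0.654). The call of TNKS was lost without empty vector replicate 1 (-0.23, adjusted p = 0.0549), without empty vector replicate 2 (-0.27, adjusted p = 0.0529) and with its 4 probe sets averaged (-0.07, adjusted p = 0.306).

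Of 10 relatives and partners of PTPN14, 2 were called higher and 1 lower, close to the 28.7% of all genes, with a median of +0.07. PTPN21, the closest relative of PTPN14, did not pass (-0.11, adjusted p = 0.311 in limma), and neither did the FERM phosphatase genes PTPN3 (-0.15) and PTPN13 (+0.15). WWC3, a member of the WWC scaffold family, rose by 0.67 (SE 0.09, adjusted p = 0.000137) at both of its probe sets, while WWC1 (+0.12) and WWC2 (+0.07) did not pass on their brightest probe sets. For WWC1, 2 of its 8 probe sets were called lower. PTPN4 fell (-0.28, adjusted p = 0.0133), but with its 4 probe sets averaged the call was lost (-0.06, adjusted p = 0.585). BCAR1, which encodes the adhesion scaffold p130Cas, rose by 0.21 (adjusted p = 0.0409). That call was lost when any one of empty vector replicates 1, 2 and 4 or YAPS127A replicates 1, 3, 4 and 5 was left out, and the difference was -0.16 without the neighbours' median (adjusted p = 0.152).

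A list of 16 genes held YAP1, WWTR1, the Ajuba family and genes for proteins that bind YAP1 or hold it outside the nucleus. Of these, 15 had a probe set of their own. Among the 15, 4 were called higher and 1 lower, or 33.3% against 28.7% of all genes, with a median of +0.08. Without the neighbours' median 4 were higher and 0 lower, where 31.1% of all genes were called. All 15 lay above the median signal. With dim probe sets left out, 4 were higher and 2 lower, where 2938 of 12226 genes were called higher and 2746 lower. Of the Ajuba family, LIM proteins of junctions that inhibit LATS kinases, WTIP and AJUBA were called and LIMD1 (+0.13) was not. WTIP rose from 6.31 to 6.49 up to 6.97 to 7.45 (+0.85, limma adjusted p = 3.86e-05), and AJUBA rose from 11.03 to 11.13 up to 11.41 to 11.78 (+0.55, adjusted p = 0.000532). TEAD4 rose by 0.40 (adjusted p = 0.000380) and TEAD3 by 0.22 (adjusted p = 0.0415). TP53BP2, which encodes the YAP-binding protein ASPP2, fell (-0.32, adjusted p = 0.00308), but not without the neighbours' median (-0.08, adjusted p = 0.414). The call of TEAD3 was lost when any one of the 4 empty vector replicates or of YAPS127A replicates 1, 2 and 5 was left out. CTNNA1 (-0.04), WWTR1 (+0.02) and the 14-3-3 genes YWHAE (-0.02) and YWHAZ (-0.15) were not called on their brightest probe sets. For WWTR1, 1 of its 3 probe sets was called higher.

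AMOTL2 and PTPN14 belong to a published signature of YAP1 and TAZ target genes. Of its 20 other genes 19 had a probe set of their own, and 10 were called higher and 2 lower, or 63.2% against 28.7% of all genes, with a median of +0.39. Without the neighbours' median 8 were higher and 3 lower, with a median of +0.17, in a fit where 31.1% of all genes were called. With dim probe sets left out, 11 of 18 were higher and 2 lower, where 2938 of 12226 genes were called higher and 2746 lower. The clearest rises by p-value were those of ANKRD1 (+2.24), IGFBP3 (+0.75) and LATS2 (+0.69), which also counts among the angiomotin partners. CCN1 rose by 0.45, and CCN2 was at +0.22 (adjusted p = 0.107 in limma). FJX1 (-0.68) and AXL (-0.30) fell, FJX1 by less without the neighbours' median (-0.27, adjusted p = 0.0362 in limma). For AXL only 1 of its 2 probe sets was called lower. The neighbours of CCN1 and CCN2 differed by +0.44 and -0.51, and without the neighbours' median CCN1 was at +0.0026 (adjusted p = 0.984) and CCN2 higher by 0.72 (adjusted p = 0.000198).

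**Figure D4:**
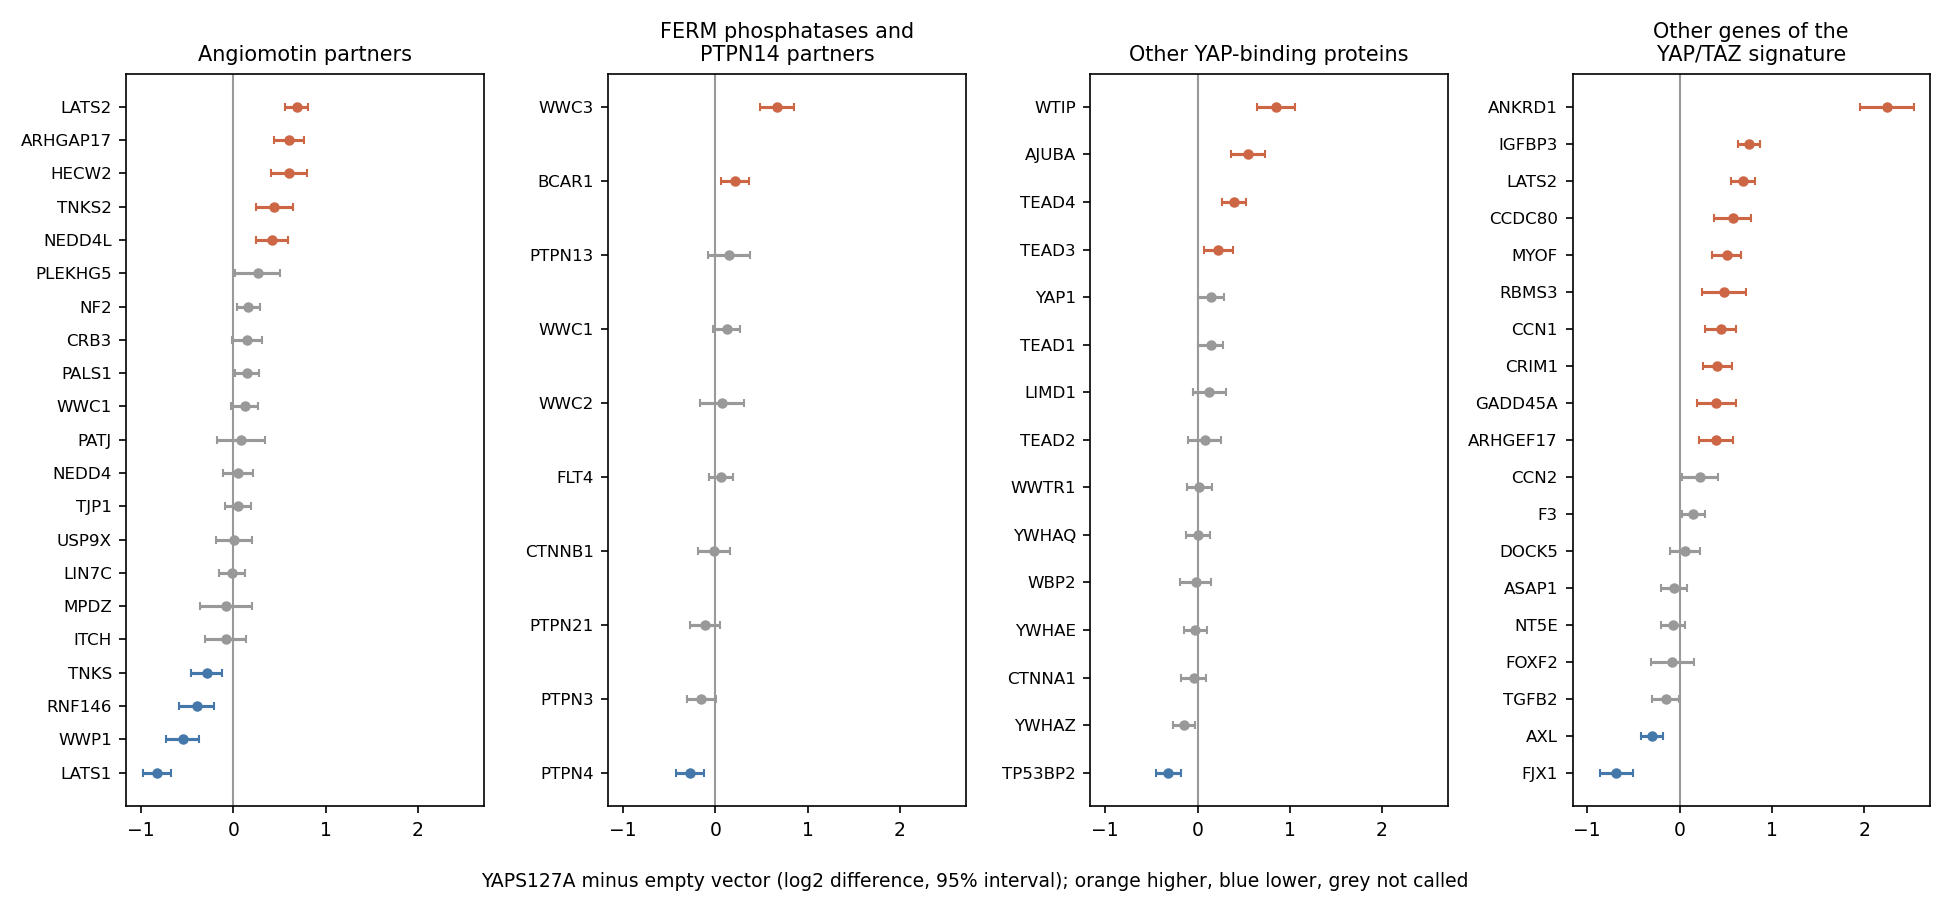
Difference between YAPS127A and empty vector (horizontal axis, log2, with the 95% interval of the limma fit) for each gene of the 4 lists on its brightest probe set; orange was called higher, blue lower and grey not called. Called genes lie on both sides of 0 among angiomotin partners (5 higher, 4 lower), while the YAP/TAZ signature has 10 to the right and 2 to the left.

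The genes most like each member were taken as those with the lowest root mean square difference over the 9 arrays, each gene centred on its empty vector mean, among the 12225 other genes (12226 for AMOT) above the median signal. For AMOT they were OXTR, which encodes the oxytocin receptor (0.19 log2 units), RESF1 (0.21) and ACER2, which encodes an alkaline ceramidase (0.21). Their own differences were -1.32, -1.22 and -1.25. For AMOTL1 they were DPY19L1 (0.04), TMOD2, which encodes a tropomodulin that caps actin filaments (0.06), and WBP4 (0.06). For AMOTL2 they were CSTF2T (0.04), CLEC16A (0.05) and SF3B3, a splicing factor gene (0.05), and for PTPN14 CRYL1 (0.05), MYL11 (0.05) and MX1 (0.06). The distances of AMOT were the widest, and it was the one member outside the range of signal from which the genes were drawn.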

How the data were processed

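The table deposited by the authors holds 1 value per probe set and array, for 9 arrays. The authors' deposited values were taken as log2 signals, normalized in a way no source used here states, from their range of 1.62 to 14.96 and array medians of 5.95 to 5.98. Summarisation and background correction are likewise unstated. No further scaling was applied, and there were 0 columns of other samples. Control probe sets (62) were left out, which leaves 54613. Symbols of 41037 probe sets were updated by gene ID through RefSeq (GRCh38.p14), which also gave gene order, and in gene lists the brightest probe set stood for each of 19775 genes. Groups came from the vector in the labels. The fit was limma 3.58.1 (R 4.3.3), lmFit and eBayes without covariates, with Benjamini-Hochberg adjustment over all probe sets at 0.05. Errors of levels are SDs and those of differences SEs. Exact permutation tests used all 126 splits of the labels. The scripts were tested on simulated data with few changed probe sets. Planted log2 changes of 0.25, 0.5, 1 and 2 were called in 4%, 40%, 88% and 100% of cases, with 3 false calls. The requirement on recovery was moved from a change of 1 to a change of 2 after these values were seen. In that simulation most changes of 0.25 were missed. In the data 23.9% of probe sets were called, far more than were planted. The adjustment depends on that share, so these rates do not describe the fit to the data. Figures were drawn with matplotlib 3.10.9.

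The members and gene lists were chosen with earlier results of these data known. Named are all member probe sets, YAP1, ANKRD1, CCN1 and CCN2, the 4 list members with the lowest p-values, called members where a direction held at most 5, and the 3 genes most like each member. Others were named after their values were seen. Alternatives were quantile normalization, median centring, leaving out dim probe sets, trend and robust eBayes, array weights, a block for the replicate number, leaving out each array in turn, the actin gap as covariate, both arrays with the largest gap left out, the mean of probe sets, and removal of the median of up to 50 neighbours. Pseudocounts were not needed on a log scale.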

Additional observations from a re-analysis of the deposited data

How the results depend on the processing

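Across all alternatives that could be fitted, AMOT stayed between -1.47 and -1.24, the brightest probe set of AMOTL1 between 0.55 and 0.65, and AMOTL2 between 0.39 and 0.48, all called. AMOT could not be fitted with dim probe sets left out, which removes it. Of 363 values recomputed for the members, their pairs and the counts, 353 were scored as unchanged, 2 of them with a change of sign that was not called. For members and pairs this means the same side of the threshold. Counts were all scored as unchanged, although they moved. The member probe sets called ran from 6 to 9, the called relatives and partners of PTPN14 from 2 to 4, and the other YAP-binding genes from 4 to 7. The exceptions, with the cause not tested, concern PTPN14 and the pairs. The probe set 226282_at was called with dim probe sets left out (+0.20), with trend and robust eBayes (+0.20) and without the neighbours' median (+0.45), as were 244533_at (+0.32) and 242321_at (+0.31) without that median. AMOTL1 minus AMOTL2 was called with the mean of probe sets (+0.28) and with the replicate block (+0.23). AMOTL2 minus PTPN14 was called with the mean of probe sets (+0.35) and without empty vector replicate 4 (+0.30). AMOTL1 minus PTPN14 was no longer called without the neighbours' median (+0.11). AMOTL2 minus PTPN14 ran from 0.16 to 0.30 with 1 array left out. Without the neighbours' median RNF146 (+0.061), BCAR1 (-0.16), CDH1 (-0.15) and GADD45A (-0.09) changed sign and were not called, and PATJ (-0.42), F3 (-0.31), CDH5 (-0.28) and PTPRC (+0.26), not called before, were called with the opposite sign. The removal was fitted on the 41005 probe sets that have neighbours. The uncalled changes of sign were those of AMOTL2 minus PTPN14 (-0.06) and of the PTPN14 probe set 205503_at (+0.19), both under this removal. The angiomotin partners were 7 higher and 4 lower with trend and robust eBayes, where 3082 of all 19775 genes were called higher and 2995 lower.

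Replicate numbers are shared by the groups in the labels, but deviations of same-numbered arrays correlated between -0.25 and 0.04 over probe sets, so they give no pairing. With the replicate block 10306 probe sets were called in place of 13052, and 6 of the 10 member probe sets, 5 higher and 1 lower, as without it. Dim signals, of which AMOT is one, limit fold changes by an unknown background.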
